A study of Mus musculus with 6 samples.

Results

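The genes described here encode the respiratory chain complexes II, III and V of the inner mitochondrial membrane, with 5 nuclear subunits of complex IV beside them. They were taken by symbol, in a choice made with earlier results of these data known. The symbols are Sdha to Sdhd, Sdhaf1, Sdhaf2, Cyc1, Bcs1l, Cox5a, Cox5b, Cox6c, Cox7b, Cox7c, and all that start with Uqcr, Uqcc or Atp5. The gene table held 52 such symbols, of which 11 were pseudogenes with no RefSeq transcript accession. The other 41 genes all had probes on the array, 62 in total, out of 20145 named genes with a probe. Complex II contributed 6 genes, complex III 13, complex IV 5 and complex V 17.

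Total RNA of heart ventricles was hybridised to one-colour Agilent arrays, 3 for controls and 3 for Tead1 icKO, an inducible cardiomyocyte knockout of the transcription factor Tead1. All mice were male, on a C57bl/6j background, 11 to 12 weeks old and given tamoxifen. The icKO mice carried Tead1F/F with Myh6-CreER, in which the Myh6 promoter drives a tamoxifen-activated Cre in cardiomyocytes. The controls carried the Tead1 flox allele, and their labels name no Cre, so Cre activity and loss of Tead1 cannot be told apart. When and at what dose tamoxifen was given is not stated in the labels. The labels call the arrays of a group biological replicates.

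Levels are log2 signals relative to the 75th percentile of the array they were measured on, so a level of 8 means a signal far above most probes. A difference of -1 means that this relative signal was 50% of control, and percentages of control below are of the relative signal. A gene was called where the adjusted p of the fit over all features was below 0.05. The probe of Tead1 itself read 4.01, 3.79 and 3.96 on the control arrays and 3.66, 3.44 and 3.46 on the icKO arrays, a difference of -0.40 ± 0.11 (SE here and below, n = 3 and 3, adjusted p = 0.03). The groups did not overlap, but the place of the probe relative to the deleted part is not given, so this value checks neither the labels nor the deletion. The call was lost without control 1, control 3, icKO 2 or icKO 3, with adjusted p of 0.0858, 0.0893, 0.0865 and 0.0901, and the difference was 0.02 with spike-in scaling. It was also lost with median scaling (-0.24), without the filter on dim probes (adjusted p = 0.122), and with the slide row (adjusted p = 0.0632) or slide column (adjusted p = 0.339) as a block.

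Complex II, or succinate dehydrogenase, takes electrons from succinate and hands them to ubiquinone. Complex III moves them from ubiquinol to cytochrome c and pumps protons, complex IV passes them to oxygen, and complex V, the ATP synthase, lets the protons flow back through a turning ring of c subunits to make ATP. In the heart, which beats without pause on oxidative metabolism, these are among the most abundant nuclear-encoded mitochondrial proteins. Each complex also needs assembly factors that insert cofactors or subunits and are not part of the finished enzyme. Factors known to act on promoters of respiratory genes include nuclear respiratory factor 1 (NRF1), the ETS-family factor NRF2/GABP, YY1 and the estrogen-related receptors (ERR).

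Promoters were found for 33 of the 41 genes in a RefSeq table of build GRCm38.p6, each covering 250 bases before to 50 bases after the annotated start. The sequences below are of the 3 c subunit genes, of which Atp5g2 fell least, and of Uqcrc1, the subunit gene with the largest fall. Each is printed 5′ to 3′ on the strand of its gene, with matches to the searched motifs in capitals. Atp5g1 lies at chr11:96075582-96075881 on the minus strand and holds none of the motifs. Atp5g2 lies at chr15:102670998-102671297 on the minus strand and holds overlapping NRF1 matches on both strands and 1 SP match. Atp5g3 lies at chr2:73911277-73911576 on the minus strand and holds 1 ERR match and 1 NRF1 match. Uqcrc1 lies at chr9:108936398-108936697 on the plus strand and holds 3 NRF1 matches, of which the last 2 overlap.
Atp5g1: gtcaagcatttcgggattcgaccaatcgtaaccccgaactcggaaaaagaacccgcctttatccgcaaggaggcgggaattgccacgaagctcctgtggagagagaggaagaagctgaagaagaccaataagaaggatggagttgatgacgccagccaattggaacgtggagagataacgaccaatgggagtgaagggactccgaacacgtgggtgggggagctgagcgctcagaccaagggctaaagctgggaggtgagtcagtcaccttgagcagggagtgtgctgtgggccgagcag
Atp5g2: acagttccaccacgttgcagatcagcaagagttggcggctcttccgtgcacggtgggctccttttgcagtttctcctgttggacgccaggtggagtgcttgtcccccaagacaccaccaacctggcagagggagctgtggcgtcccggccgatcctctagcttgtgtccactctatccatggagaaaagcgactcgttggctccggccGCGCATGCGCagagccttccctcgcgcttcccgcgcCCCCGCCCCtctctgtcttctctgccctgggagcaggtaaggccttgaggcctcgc
Atp5g3: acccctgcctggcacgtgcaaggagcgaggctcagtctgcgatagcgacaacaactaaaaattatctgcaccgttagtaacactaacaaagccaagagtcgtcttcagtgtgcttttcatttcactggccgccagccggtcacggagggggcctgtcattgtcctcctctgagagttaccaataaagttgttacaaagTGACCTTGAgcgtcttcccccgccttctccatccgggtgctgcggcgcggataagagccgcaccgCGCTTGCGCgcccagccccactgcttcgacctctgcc
Uqcrc1: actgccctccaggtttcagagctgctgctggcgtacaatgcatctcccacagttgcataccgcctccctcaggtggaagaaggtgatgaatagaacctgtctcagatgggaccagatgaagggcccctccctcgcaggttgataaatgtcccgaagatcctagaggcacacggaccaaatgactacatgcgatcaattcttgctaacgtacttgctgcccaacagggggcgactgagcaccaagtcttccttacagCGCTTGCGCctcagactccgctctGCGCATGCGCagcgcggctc

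Over the 33 genes with a promoter, the NRF1 motif, searched as GCGCANGCG on both strands, stood in 12 (36.4%), against 7.03% of the 27025 genes in the table. It was found in 2 of 5 complex II genes, 3 of 9 of complex III, 0 of 4 of complex IV and 7 of 15 of complex V. The YY1 motif AANATGGC stood in 21.2% of the member genes and 6.96% of all genes, and the ETS motif CCGGAAGT in 12.1% and 4.31%. The ERR motif TCAAGGTCA occurred in 2 members, Atp5g3 and Sdhd, which is 6.06% against 0.466%. The SP motif CCCCGCCCC occurred in 21.2% and 12.9%. In the 250 bases before the start alone, the NRF1 motif stood in 24.2% and 5.86% and the YY1 motif in 6.06% and 4.49%. The TEAD motif GGAATG occurred in 9.09% of the member genes (Atp5d, Atp5j2 and Cox5a) and in 16.6% of all genes. The members' promoters were richer in G and C, with a median of 58.8% against 52.7%, and a match to these letters is a description and not a binding site.

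In the icKO ventricles 40 of the 41 genes were lower than in controls and none was higher. Of all 22292 features tested, 28.7% were called lower and 16.0% higher, and of the brightest 10% of features 41.1% were called lower. The median difference of the 41 genes was -0.80, that is 57.2% of the control signal, while the median of all features was -0.14. All 41 genes had every icKO array below every control array, a pattern shown by 37.5% of all features. The differences ran from -1.47 for Bcs1l to -0.15 for Uqcc3, the gene that was not called.

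**Figure D1:**
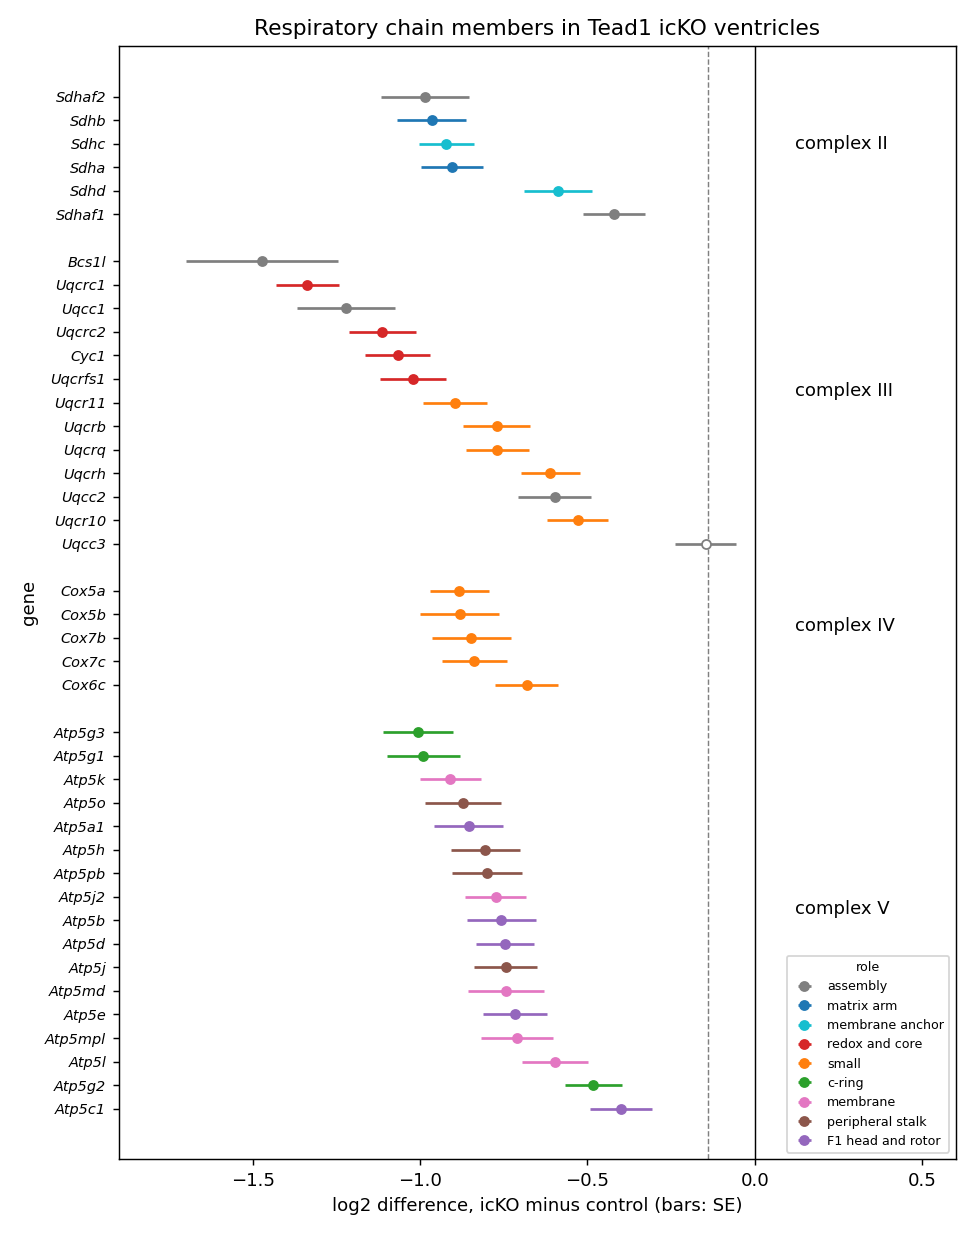
Log2 difference between icKO and control for each of the 41 genes, grouped by complex and coloured by role, with bars for the SE of the limma fit on 3 and 3 arrays. The dashed line marks the median of all features, -0.14, and the open point is Uqcc3, the gene not called. All points lie left of 0, and the 4 redox and core genes of complex III lie left of the 5 small subunits of that complex.

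The count of lower genes depended on how arrays were set to a common scale. It was 35 with the median in place of the 75th percentile, 31 with quantile normalization, 31 in the authors' deposited value table and 15 with the scale set by Agilent spike-in probes, which read RNA added during labelling. With spike-in scaling the median of all features was 0.28 and that of the 41 genes -0.38. The members' median less that of all features was -0.67 both in the 75th percentile and in the spike-in scaling. Both scalings shift a whole array by a constant, which cancels from this value, so their equality was fixed in advance. With quantile normalization, which is not such a shift, the value was -0.34. Higher calls made up 35.8% of all calls, against 54.6%, 43.6% and 79.8% with the median, quantile and spike-in scaling. The median member lay at the 98.8th percentile of mean level over the arrays of both groups, so most of these probes sit at the bright end of the array.

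Position on the slide moved with the groups. All 6 arrays lay on 1 slide, with 2 controls in column 1, 1 control and 1 icKO array in column 2, and 2 icKO arrays in column 3. With the column as a block, 11 of the 41 genes were called lower. That fit rests on the 1 control and 1 icKO array that share column 2, between which all 41 genes were lower with a median of -0.77. Slide rows held both groups: all 41 genes were lower within row 1 (median -0.90) and within row 2 (median -0.73), and 40 were called lower with the row as a block.

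**Figure D2:**
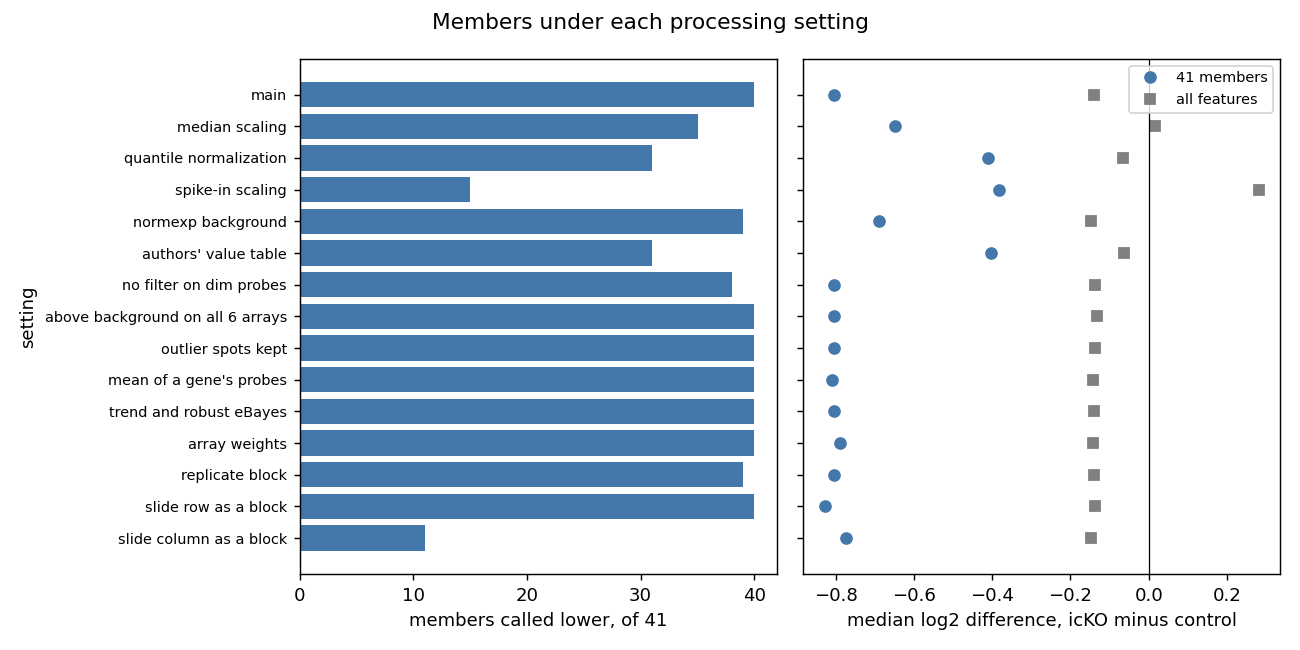
Left, bars give the number of the 41 genes called lower under each processing setting. Right, circles give the median log2 difference of the 41 genes and squares that of all features. The circles stay left of the squares in every setting shown, while the count falls from 40 to 15 with spike-in scaling and to 11 with the slide column as a block.

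Complex II is the smallest complex here, with 4 subunits, all nuclear-encoded, and 2 assembly factors in the list. All 6 genes were called lower, with a median of -0.91. Its catalytic arm in the matrix consists of Sdha, which holds the flavin, and Sdhb, which holds the iron-sulphur clusters. Sdhb read 9.36, 9.16 and 9.22 in controls and 8.29, 8.18 and 8.37 in icKO, a difference of -0.96 ± 0.10 (adjusted p = 0.00105). Sdha differed by -0.90 ± 0.09 (adjusted p = 0.000948), so both catalytic subunits fell to between 51.2% and 53.4% of control.

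The membrane anchors of complex II, Sdhc and Sdhd, bind ubiquinone and hold the catalytic arm in place. Sdhc was among the tightest members across arrays, at 6.63, 6.65 and 6.60 in controls and 5.70, 5.71 and 5.71 in icKO (-0.92 ± 0.08, adjusted p = 0.000598). Sdhd read 7.07, 7.01 and 7.06 in controls and 6.45, 6.34 and 6.59 in icKO (-0.59 ± 0.10, adjusted p = 0.00537). The icKO arrays thus lay below the controls for both anchors, with a gap between the groups of 0.88 for Sdhc and 0.42 for Sdhd.

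The assembly factors of complex II bracketed the subunits. Sdhaf2, which helps attach the flavin to Sdha, had a dimmer probe at 2.26, 2.19 and 2.25 in controls and 0.998, 1.32 and 1.42 in icKO (-0.99 ± 0.13, adjusted p = 0.00213). Sdhaf1, which helps place iron-sulphur clusters in Sdhb, read 3.37, 3.38 and 3.47 in controls and 2.999, 2.90 and 3.06 in icKO (-0.42 ± 0.09, adjusted p = 0.0128). Sdhaf1 had the smallest fall of the complex, and its call was lost without control 3 (adjusted p = 0.0503), with median scaling (-0.26), with normexp background (-0.24) and with spike-in scaling (0.00). It was also lost at an unchanged difference of -0.42 without the filter on dim probes (adjusted p = 0.0728) and at -0.48 with the slide column as a block (adjusted p = 0.142).

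Complex III, the cytochrome bc1 complex, held both the largest and the smallest differences of the 41 genes, and 12 of its 13 genes were called lower (median -0.90). Its redox and core genes fell most among the subunits. Uqcrc1, a core protein on the matrix side, read 7.38, 7.21 and 7.29 in controls and 5.95, 5.90 and 6.01 in icKO, a difference of -1.34 ± 0.09 (adjusted p = 0.000313). The icKO signal of Uqcrc1 was 39.6% of control, and its groups were separated by 1.19, the widest gap among the members. Uqcrc2, the other core protein, differed by -1.11 ± 0.10. Cyc1, the haem-carrying cytochrome c1 that reduces cytochrome c, differed by -1.07 ± 0.10, and Uqcrfs1, the Rieske iron-sulphur protein that takes electrons from ubiquinol, by -1.02 ± 0.10. The calls of these 4 genes held under every setting run, spike-in scaling and the slide column block included.

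The 5 small subunits of complex III surround this core and carry no redox group. They were all called lower, at -0.90 for Uqcr11, -0.77 for Uqcrb, -0.77 for Uqcrq, -0.61 for Uqcrh, the hinge protein that helps cytochrome c1 meet cytochrome c, and -0.53 for Uqcr10. Uqcr10 read 8.36, 8.19 and 8.28 in controls and 7.78, 7.72 and 7.75 in icKO (-0.53 ± 0.09, adjusted p = 0.00539). Its icKO arrays stood closely together and below all controls. With quantile normalization Uqcr10, Uqcrq and Uqcrh were no longer called, at -0.14, -0.22 and -0.02, nor were they in the authors' value table. Spike-in scaling removed the calls of these genes and of Uqcrb, and median scaling that of Uqcr10. None of the 5 small subunits was called with the slide column as a block.

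The mean over the redox and core genes, less the mean over the small subunits of the same array, was -1.14, -1.10 and -1.10 on the control arrays and -1.56, -1.59 and -1.45 on the icKO arrays. All 3 icKO arrays lay below all 3 controls, with a change of -0.42. This split was drawn after the values had been seen, so no test is given. The change was -0.64 with quantile normalization and between -0.46 and -0.39 when any 1 array was left out. Across the 9 subunits the brighter genes had the smaller falls, with a correlation between control level and difference of 0.64 over genes that share the same 6 arrays. The part of probe brightness in the split was not tested.

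The assembly factors of complex III were spread most widely. Bcs1l, which places the Rieske protein in the complex, read 3.44, 3.35 and 3.49 in controls and 1.42, 2.25 and 2.18 in icKO, a difference of -1.47 ± 0.23 (adjusted p = 0.0036). The first icKO array was the lowest by far, and without it the difference of Bcs1l was -1.21. Uqcc1, which supports the synthesis of cytochrome b, read 3.74, 3.47 and 3.68 in controls and 2.17, 2.44 and 2.62 in icKO (-1.22 ± 0.15, adjusted p = 0.0015). Its partner Uqcc2 differed by -0.60 ± 0.11 (adjusted p = 0.00647).

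Uqcc3, another factor of early complex III assembly, was the exception among the 41 genes. It read 5.73, 5.60 and 5.72 in controls and 5.49, 5.53 and 5.60 in icKO, a difference of -0.15 ± 0.09 (adjusted p = 0.233). The highest icKO array and the lowest control array were nearly level, although they did not cross. Its difference was close to the median of all features, and it was 0.01 on the median scale and 0.28 on the spike-in scale.

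**Figure D3:**
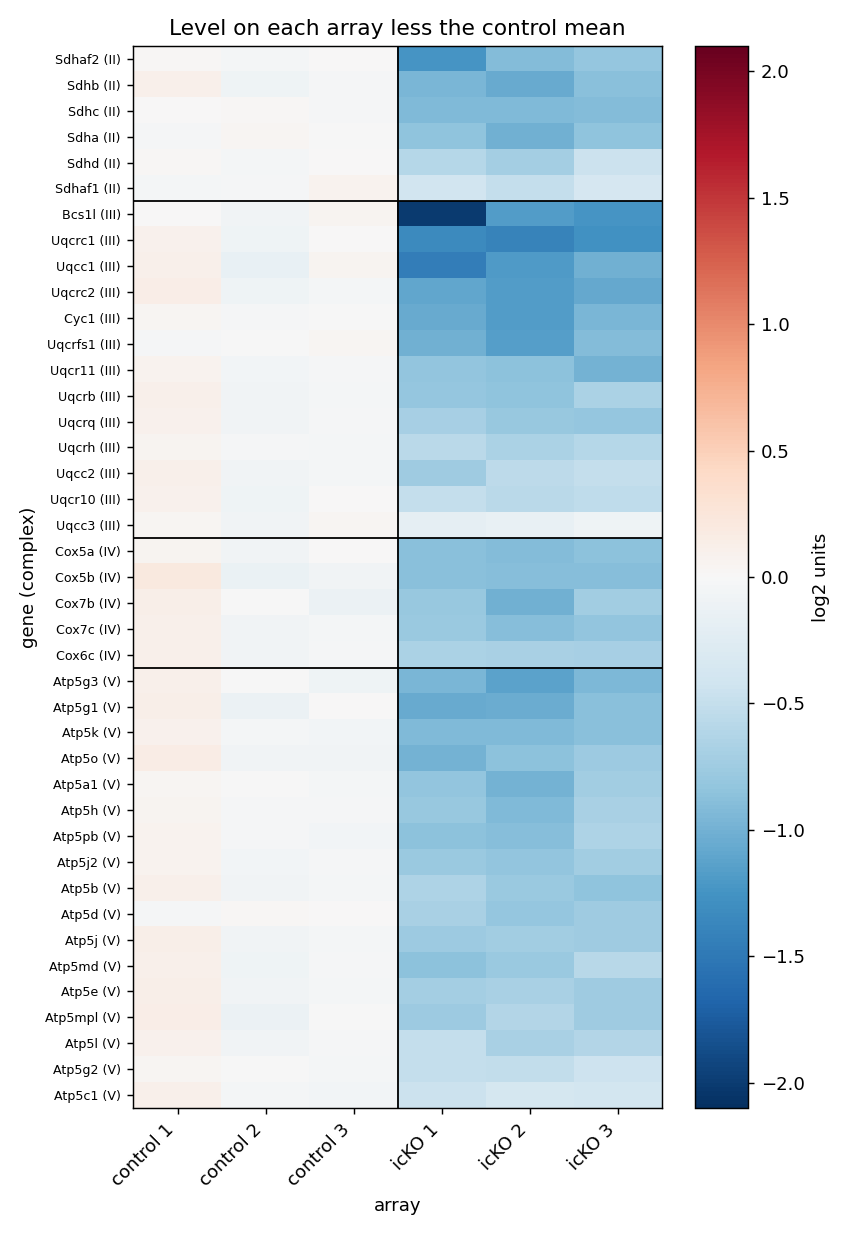
Level of each of the 41 genes on each of the 6 arrays less that gene's control mean, in log2 units, with genes ordered by difference within their complex. Blue marks levels below the control mean: the 3 icKO columns are blue for every gene, deepest for Bcs1l in icKO 1 and palest for Uqcc3.

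The complex IV genes in the list are 5 of its nuclear subunits, which surround the mitochondrially encoded catalytic core. All 5 were called lower within a narrow range. Cox5a read 9.99, 9.85 and 9.94 in controls and 9.05, 9.02 and 9.07 in icKO (-0.88 ± 0.09, adjusted p = 0.000831). Cox5b, which binds zinc on the matrix side, read 8.36, 8.01 and 8.09 in controls and 7.28, 7.27 and 7.27 in icKO (-0.88 ± 0.12, adjusted p = 0.00216). For both, the icKO arrays agreed more closely with each other than the controls did.

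Cox7b, a small membrane subunit, read 9.28, 9.15 and 9.03 in controls and 8.36, 8.15 and 8.42 in icKO (-0.85 ± 0.12, adjusted p = 0.00258). Cox7c, another small membrane subunit, read 8.21, 8.02 and 8.06 in controls and 7.31, 7.20 and 7.26 in icKO (-0.84 ± 0.10, adjusted p = 0.00135). A dim Cox7c probe, well above background on 2 control arrays and 1 icKO array, was left out by the filter and differed by -0.17. Cox6c had the smallest fall of the 5, from 8.80, 8.61 and 8.66 to 8.02, 8.01 and 7.997 (-0.68 ± 0.09, adjusted p = 0.00235), and was not called with quantile normalization (-0.24), spike-in scaling (-0.26) or the slide column as a block (-0.64). The 5 genes fell in the order Cox5a, Cox5b, Cox7b, Cox7c and Cox6c, but the differences of the first 4 lay within an SE of each other.

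Complex V was called lower in all 17 genes, with a median of -0.76. Its F1 part, the catalytic head and central rotor in the matrix, comprises the alpha, beta, gamma, delta and epsilon subunits. Atp5a1 (alpha) differed by -0.85 ± 0.10, Atp5b (beta, which holds the catalytic sites) by -0.76 ± 0.10, Atp5d (delta) by -0.75 ± 0.09 and Atp5e (epsilon) by -0.72 ± 0.10, with adjusted p of at most 0.00233. These 4 genes thus fell to between 55.3% and 60.9% of control.

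Atp5c1, the gamma subunit that turns inside the head, had the smallest fall of complex V. Its probe read 4.54, 4.39 and 4.37 in controls and 3.98, 4.06 and 4.04 in icKO (-0.40 ± 0.09, adjusted p = 0.0158). Its other probe differed by -0.72, close to the alpha and beta subunits, so the size of the Atp5c1 fall depended on the probe. The call of Atp5c1 was lost on the median scale (-0.24) and the spike-in scale (0.02). It was also lost at an unchanged difference without the filter on dim probes (adjusted p = 0.0849) and at -0.38 with the slide column as a block (adjusted p = 0.204).

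The peripheral stalk keeps the head from turning with the rotor. Atp5o, the OSCP subunit at its top, differed by -0.87 ± 0.11, Atp5h (subunit d) by -0.80 ± 0.10, Atp5pb (subunit b) by -0.80 ± 0.10 and Atp5j (coupling factor 6) by -0.74 ± 0.09. All 4 were called lower, with adjusted p of at most 0.00205. The membrane subunits e, f and g and the small proteolipids Atp5md and Atp5mpl help ATP synthases pair up and shape the cristae. Atp5k (subunit e) read 8.96, 8.81 and 8.81 in controls and 7.94, 7.93 and 7.99 in icKO (-0.91 ± 0.09, adjusted p = 0.000862). The other membrane genes ran from -0.77 for Atp5j2 to -0.60 for Atp5l, and all 5 were called lower. The 5 probes of Atp5l ranged from -0.60 to -0.21, and the groups overlapped on the last of these. Pseudogenes that match these symbols exist for several members, and signal from near-identical copies cannot be separated here.

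The c-ring is built from 1 small protein encoded by 3 genes, Atp5g1, Atp5g2 and Atp5g3, whose mature products are identical and whose targeting sequences differ. Atp5g1 read 10.04, 9.79 and 9.93 in controls and 8.86, 8.88 and 9.05 in icKO (-0.99 ± 0.11, adjusted p = 0.00119). Atp5g3 read 9.52, 9.41 and 9.32 in controls and 8.46, 8.28 and 8.48 in icKO (-1.01 ± 0.11, adjusted p = 0.000985). Atp5g2 read 8.87, 8.82 and 8.78 in controls and 8.33, 8.30 and 8.39 in icKO (-0.48 ± 0.09, adjusted p = 0.00605). Thus Atp5g1 and Atp5g3 had the largest falls of complex V and Atp5g2 nearly the smallest, with no overlap between groups for any of them.

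Within single arrays, Atp5g1 less Atp5g2 came to 1.17, 0.98 and 1.15 for controls and to 0.53, 0.58 and 0.66 for icKO, a change of -0.51. Every icKO array lay below every control, with an exact two-sided permutation p of 0.1, the smallest that 3 against 3 allows, and 0.15 adjusted over the 3 pairs. Atp5g2 less Atp5g3 changed by 0.52 the other way, with all icKO arrays above all controls (exact permutation p = 0.1, adjusted 0.15). Atp5g1 less Atp5g3 changed by 0.02 and the groups overlapped (exact permutation p = 0.9, adjusted 0.9). The call of Atp5g2 was lost with median, quantile and spike-in scaling, in the authors' value table and with the slide column as a block. With quantile normalization the difference of Atp5g2 itself was 0.01, while Atp5g1 less Atp5g2 still changed by -0.42. The promoters printed above differ in these 3 genes. Atp5g2, which fell least, holds NRF1 matches at 1 place, a stretch that reads the same on both strands, and an SP match. Atp5g3 also holds NRF1 at 1 place, with an ERR match, and Atp5g1 holds none of the motifs. With 3 promoters this is a description.

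**Figure D4:**
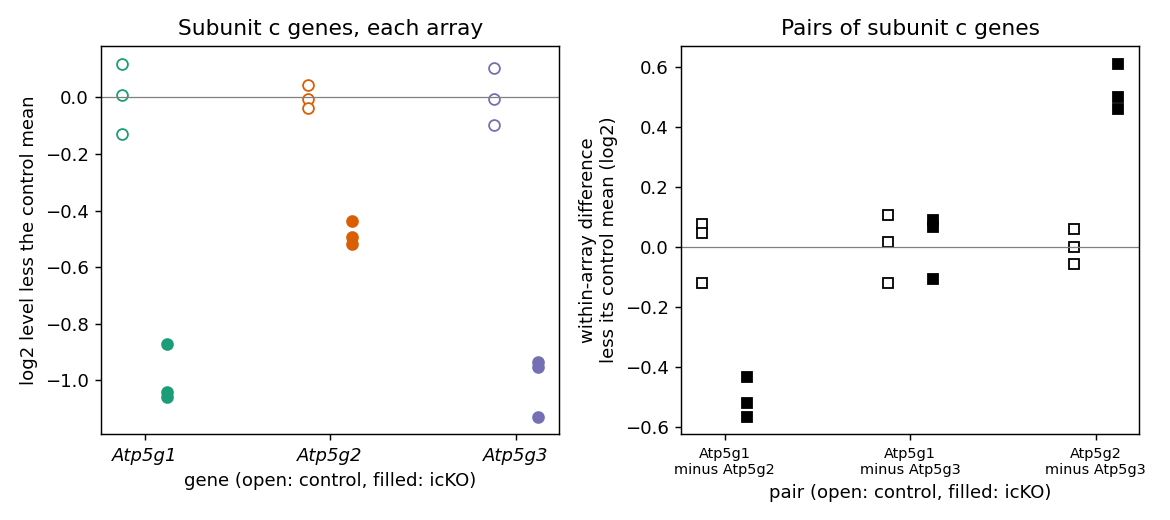
Left, log2 level of the 3 genes for subunit c on each array less the control mean, with open points for controls and filled points for icKO. Right, differences between pairs of these genes within each array, less the control mean of that difference. The icKO points average -0.48 for Atp5g2, -0.99 for Atp5g1 and -1.01 for Atp5g3, and only the pair Atp5g1 and Atp5g3 overlaps between groups.

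Complexes were compared within arrays, by the mean over one complex less the mean over another, which removes the scaling of the array. Complex III less complex V stood at -1.12, -1.12 and -1.06 among controls and at -1.28, -1.20 and -1.21 among icKO arrays, a change of -0.13 with no overlap. Complex IV less complex V stood at 0.42, 0.36 and 0.37 among controls and at 0.35, 0.30 and 0.29 among icKO arrays, a change of -0.07 with no overlap.

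Complex II less complex V changed by -0.04 and the groups overlapped. Complex II less complex III changed by 0.09, with 2 of 3 icKO arrays above all controls, and by -0.02 with quantile normalization. With that normalization complex II less complex V changed by -0.27 and complex III less complex V by -0.25. Since 3 against 3 arrays cannot give an exact p below 0.1, these changes are given without a test. The order of the complexes by mean difference was III (-0.89), IV (-0.83), II (-0.80) and V (-0.76). It spans 0.13, less than the range among the single genes of complex V. The means of II and III, here and within arrays, include 2 and 4 assembly factors, while those of IV and V include none. By median difference the order was II (-0.91), III (-0.90), IV (-0.85) and V (-0.76), so the place of complex II depended on the summary. With quantile normalization the changes of -0.27 and -0.25 stand beside a median difference of the 41 genes of -0.41.

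**Figure D5:**
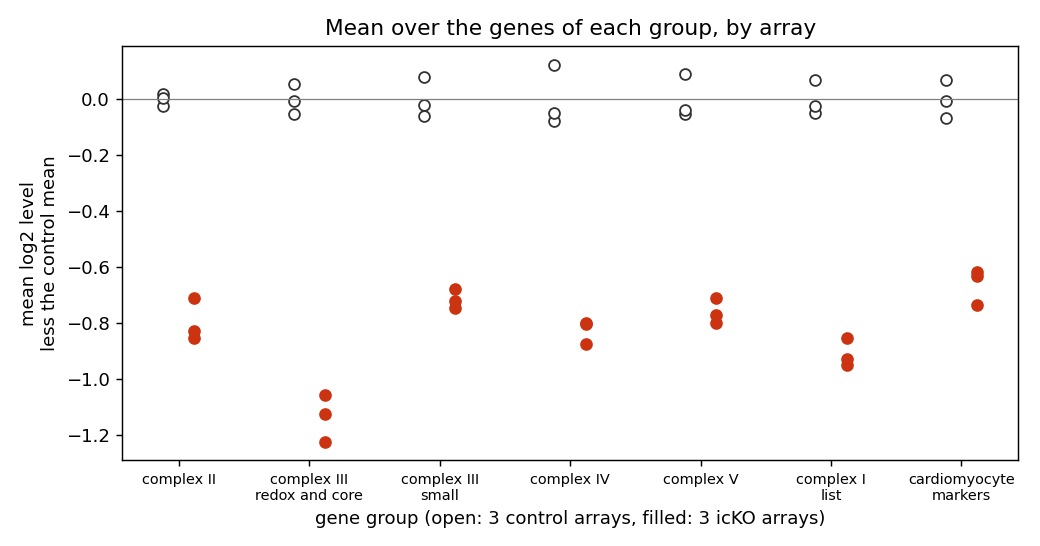
Mean log2 level over the genes of each group on each array, less the control mean of the group, with open points for the 3 controls and filled points for the 3 icKO arrays. All groups are lower in icKO, by -1.13 on average for the redox and core genes of complex III and by between -0.91 (complex I list) and -0.66 (cardiomyocyte markers) for the others.

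The rest of the respiratory chain and its partners were described from lists of their genes. Beside the counts of these lists stand 28.7% of all features called lower and 41.1% of the brightest 10% of features. Of 36 complex I genes, all were called lower, with a median of -0.94, from Ndufs4 (-1.35) to Ndufa11 (-0.46, adjusted p = 0.0527 without control 1). The members' mean less the complex I mean changed by 0.10 within arrays, with every icKO array above every control. Of the 12 other complex IV genes, 10 were called lower, led by Cox7a1, the muscle form of subunit VIIa, at -1.43. Other forms of subunits VIIa and VIa, Cox7a2 (-0.34, adjusted p = 0.0367) and Cox6a2 (-0.38, adjusted p = 0.029), were also called lower. The 2 not called were Cox8a (0.26, adjusted p = 0.0541) and Cox6a1 (0.15, adjusted p = 0.301), the forms of subunits VIII and VIa found in most tissues. Both were called higher with quantile and spike-in scaling, at 0.66 and 0.68 for Cox8a and 0.60 and 0.57 for Cox6a1, and Cox8a also with median scaling (0.42).

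Of 9 further assembly factors of complexes II, III and V, 8 had a kept probe and all 8 were called lower. Atpaf1, an ATP synthase factor named for this reason after its values were seen, was above background on 3 control arrays and 1 icKO array and so passed the filter only through the group where it was high. Among probes above background on all 6 arrays the count was 7, all those measured, and without the filter it was 6. Ttc19, a complex III factor, fell most (-1.28), and Tmem242, an ATP synthase factor, least (-0.31, adjusted p = 0.0352). The Tmem242 call was lost without any 1 of the 3 controls, icKO 2 or icKO 3, with adjusted p between 0.0576 and 0.107. Of 7 carriers and partners of the chain, 5 were called lower, with Ckmt2, the mitochondrial creatine kinase of striated muscle, at -1.42. Slc25a5, the adenine nucleotide carrier of many tissues, differed by 0.02 and was not called. Atpif1, the inhibitor protein of the ATP synthase and named here after its values were seen, differed by -0.09 (adjusted p = 0.45) and by 0.30 with quantile normalization.

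Among 14 regulators of mitochondrial genes, 5 were called lower and 1 higher, against 28.7% and 16.0% of all features, so these shares are near or below the background. Ppargc1b, a coactivator of nuclear receptors, was well above background on 3 control arrays and on 0 icKO arrays, and was at least 4.27-fold lower in icKO. Its probe passed the filter on dim probes through the controls alone, so its call lends no support, and 4 regulators were called lower among probes above background on all 6 arrays. Nrf1, which encodes the factor of the NRF1 motif, was called higher (0.53, adjusted p = 0.00856), but by 0.14 and not called with the mean of its probes. Esrra and Tfam were named after their values were seen. Esrra, an estrogen-related receptor, was called lower at -0.56 (adjusted p = 0.0124), and Tfam, which packs mitochondrial DNA, at -0.73 (adjusted p = 0.00184). Ppargc1a, the best known coactivator of this group, differed by -0.46 and was not called (adjusted p = 0.136), but was without control 2 (-0.69, adjusted p = 0.0275).

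Summed marker signals of the cells of the ventricle did not overlap between groups, except for smooth muscle and pericytes. The counts below stand beside 28.7% of all features called lower and 16.0% called higher. Of 10 cardiomyocyte markers 9 were called lower, and their summed signal, in multiples of the 75th percentile signal, was 8582 to 10363 in controls and 5633 to 6145 in icKO. The summed signal of the 41 genes was 14501 to 16054 and 8352 to 8850. Of 8 fibroblast markers 7 were called higher, with sums of 243 to 395 in controls and 604 to 774 in icKO. Of 7 measured macrophage markers 6 were called higher (30.2 to 41.3 and 67.1 to 87.6). Of 7 endothelial markers 3 were called lower (63.8 to 74.4 and 47.2 to 61.3), and of 4 measured blood markers 2 were called higher (388 to 692 and 707 to 1582). Of 6 smooth muscle and pericyte markers 1 was called lower and 2 higher, with overlapping sums (46.8 to 74.3 and 59.3 to 67.7).

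In bulk tissue, fewer cardiomyocytes and less RNA per cardiomyocyte cannot be told apart, and the part of the cell mixture in the fall of the 41 genes was not tested. Their mean less the mean of the cardiomyocyte markers came to -1.35, -1.34 and -1.37 for controls and to -1.57, -1.47 and -1.48 for icKO. The icKO arrays lay below all controls, a change of -0.15. The mean fall of the 41 genes was -0.81 and that of the cardiomyocyte markers -0.66. The markers ranged from Ckmt2 (-1.42), itself a mitochondrial enzyme that is also in the carrier list, to Ryr2, the calcium release channel and the marker not called (0.05).

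Different probes of a gene gave similar differences in most cases. Among the 15 genes with more than 1 probe, the median range between probes was 0.08 and the largest 0.67, for Cox7c with its dim probe. All 62 probes were lower in icKO on average and 60 of them without overlap between groups. Across the 41 genes, which share the same arrays and are not independent, the correlation between control level and difference was 0.06. Across the 17 genes of complex V it was -0.48, the brighter genes having the larger falls. Sdhc, Sdhaf2, Cyc1, Uqcrfs1, Uqcrc1, Uqcrc2, Bcs1l, Uqcc1, Cox5a, Atp5g1 and Atp5k kept their call under every setting and with any 1 array left out.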

How the data were processed

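Cy3-labelled ventricle RNA was hybridised to 6 one-colour Agilent arrays, 3 control and 3 icKO. The deposited scanner files hold spot intensity, background-subtracted within each array by Feature Extraction 11.0.1.1 on array design 028005 (mouse build mm9), per the file headers, while the submitters' processing notes name version 9.1. The authors' deposited value table holds linear intensity with medians of 18.37 to 18.47, made by a method not given in the sources used here. Arrays had 62976 spots, 75th percentile signals of 189 to 233 in controls and 292 to 348 in icKO, 49.1% to 51.9% of spots well above background and 0 saturated spots. Precision is limited by how few arrays there are.

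Processed signals were taken as log2 less the array's 75th percentile over non-control spots. Outlier spots were dropped, and spots of a probe averaged. Only probes that every array of a group showed well above background were kept, in either group, leaving 26166 of 55681. Probes were named by RefSeq accession in the GRCm38.p6 gene table, for names only, which named 26582. The brightest kept probe stood in for a gene, and unnamed probes were tested singly. Groups were compared with limma 3.58.1 (R 4.3.3), and p-values were adjusted by Benjamini-Hochberg over 22292 features with a threshold of 0.05. All adjusted p-values given for genes are limma's. The code was tested on simulated data. Pairs of subunit c genes were compared by an exact permutation test. A probe not well above background in a whole group has a bound there, computed from the other group's mean against the higher of the dimmest signal above background and its own signal.

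The members and lists were chosen with earlier results of these data known. Any member may be named. Values on each array are given for the 3 most and 2 least negative genes of each complex, for genes not called and for the subunit c genes. Of other lists the extremes and exceptions are named. Alternatives covered scaling, background (normexp with an offset of 50, on median signals since mean signals were not in the files), the dim probe filter, outlier spots, the rule for probes of a gene, the fit, blocks and left-out arrays.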

Additional observations from a re-analysis of the deposited data

How the results depend on the processing

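Of the 41 genes, 40 were called lower, and 31 to 40 in the settings other than spike-in scaling (15) and the slide column as a block (11), an alternative chosen after seeing the data that rests on 1 array per group. By complex, these 2 settings left 3 and 2 genes of complex II, 7 and 6 of III, 2 and 1 of IV, and 3 and 2 of V, 21 and 19 of the complex I list, and 3 and 2 of the other complex IV genes. The assembly list kept 5 with spike-in scaling. The carriers kept 1 and 2, and the regulators 1 and 1. Quantile normalization, the authors' table and the absence of a filter on dim probes each left 6 of the other complex IV genes, and median scaling and no filter 3 of the regulators. Over all features, 3659 were called lower with median scaling, 1704 with spike-in scaling, 3996 without the filter and 1907 with the slide column block, against 6403, and 6742, 2127 and 1163 higher with the last 3, against 3576. With quantile normalization and the authors' table in turn, complex II less V changed by -0.27 and -0.27, III less V by -0.25 and -0.25, II less III by -0.024 and -0.025, the redox and core less the small genes of complex III by -0.64 and -0.63, and Atp5g1 less Atp5g2 by -0.42 and -0.41. Leaving out 1 array gave 39 to 40 genes lower.

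Signs turned with spike-in scaling for Sdhaf1 (0.0011), Uqcc3 (0.28), Atp5c1 (0.021), Tead1 (0.023), Tmem242 (0.11) and Atpif1 (0.33). They turned with median scaling for Uqcc3 (0.011) and Atpif1 (0.064), with normexp for Atpif1 (0.12), and with quantile normalization and the authors' table for Atp5g2 (0.0063 and 0.0051) and Atpif1 (0.30 and 0.29). With the slide column block they turned for Cox6a1 (-0.057) and Slc25a5 (-0.13), which ranged from -0.030 to 0.059 when 1 array was left out. Ryr2 was at -0.0016 with array weights and from -0.018 to 0.084 with 1 array left out. Median and spike-in scaling each shift all genes of an array alike, so the sign turns under them come from a common shift. The median of all features moved from -0.14 to 0.28 with spike-in scaling and to 0.02 with median scaling. Why the scales differ was not tested, nor was the cause of the other shifts. With the replicate block 39 of the 41 genes were called lower, Atp5c1 being lost (adjusted p = 0.0575), as was Tead1 (adjusted p = 0.051). The deviations of same-numbered arrays correlated at -0.05, -0.13 and 0.00, so the numbers are not read as pairs.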
